A study of Mus musculus with 6 samples.

Results

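The transcripts of 9 secreted growth and neurotrophic factors were followed in primary cultures of mouse microglia, the resident macrophages of the brain. The factors are Igf1, Pdgfa, Pdgfb, Vegfa, Vegfb, Bdnf, Hbegf, Hgf and Inhba, chosen by name, and all probe sets annotated with exactly 1 of these symbols were taken. That gave 20 probe sets for the 9 genes, out of 18193 genes that a probe set with a single symbol names on the array. The study held 6 cultures with 1 single-colour oligonucleotide array each, 3 labelled Dap12-ko and 3 labelled wt. Dap12 is an adaptor of myeloid receptors, encoded by Tyrobp, and the comparison asks how its loss alters the transcripts of cultured microglia. The sources used here do not give the allele, the mouse strain, the age of the donor animals, any treatment or the number of animals behind a culture. Sample titles carry 1 or 2 numbers each, and what these stand for is not stated. The p-values therefore cover the spread among these 6 cultures, which may be technical. Of the 9 factors, 8 had a probe set bright enough to be tested, and 0 of their 17 tested probe sets passed; Inhba was too dim.

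Growth factors of this kind are secreted or shed proteins that act through receptor kinases on neighbouring cells. Microglia are known as a source of insulin-like growth factor 1, encoded by Igf1, which supports neurons and oligodendrocytes through the receptor Igf1r. Platelet-derived growth factors drive oligodendrocyte precursors and pericytes, vascular endothelial growth factors act on vessels, and brain-derived neurotrophic factor acts on synapses through the receptor kinase encoded by Ntrk2. The heparin-binding ligand encoded by Hbegf is cut from the membrane to act on the epidermal growth factor receptor, hepatocyte growth factor acts through Met, and the product of Inhba pairs with itself to form activin A, a ligand of the transforming growth factor beta superfamily.

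Start-site sequence is shown for Igf1, the factor of the 9 that microglia are best known to make, and for Vegfa, a textbook target of the hypoxia-inducible factors, because a list of hypoxia genes is set beside it further on. The windows are RefSeq's, run from 250 bases before to 50 after an annotated start on the build GRCm38.p6, and are printed 5′ to 3′ on the strand of the gene. Capitals mark ACGTG or GCGTG on either strand, the core letters that hypoxia-inducible factors bind.
Igf1, chr10:87860861-87861160, plus strand: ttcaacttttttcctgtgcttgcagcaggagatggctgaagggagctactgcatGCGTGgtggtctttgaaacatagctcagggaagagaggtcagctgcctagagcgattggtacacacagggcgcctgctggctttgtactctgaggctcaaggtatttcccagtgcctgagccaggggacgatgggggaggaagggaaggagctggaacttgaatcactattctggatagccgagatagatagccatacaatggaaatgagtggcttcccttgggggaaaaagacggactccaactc
Vegfa, upstream start, chr17:46032328-46032627, minus strand: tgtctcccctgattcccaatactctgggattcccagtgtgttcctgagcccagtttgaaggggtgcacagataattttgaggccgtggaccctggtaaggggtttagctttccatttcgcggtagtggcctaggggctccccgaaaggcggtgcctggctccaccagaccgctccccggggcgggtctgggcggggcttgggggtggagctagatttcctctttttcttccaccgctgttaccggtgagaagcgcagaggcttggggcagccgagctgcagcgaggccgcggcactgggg
Vegfa, downstream start, chr17:46025114-46025413, minus strand: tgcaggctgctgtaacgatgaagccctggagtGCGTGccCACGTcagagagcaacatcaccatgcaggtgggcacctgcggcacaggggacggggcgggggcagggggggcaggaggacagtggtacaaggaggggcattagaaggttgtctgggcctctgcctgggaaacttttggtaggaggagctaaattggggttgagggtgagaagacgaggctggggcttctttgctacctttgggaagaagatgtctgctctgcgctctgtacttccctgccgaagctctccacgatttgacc
The Igf1 window held 1 such match and 6 CpG dinucleotides. The upstream Vegfa window held 0 matches and 16 CpG dinucleotides, and the downstream window held 2 matches, side by side without overlap, and 10 CpG dinucleotides. These 2 matches lie past the upstream start on the strand of the gene, not ahead of it. Whether they fall in coding sequence was not analysed. Of 32851 windows of this length, 43.8% held at least 1 match, and the median window had 7 CpG dinucleotides. The matches describe letters only, no binding was measured, and sequence outside the windows was not searched. Windows were found for 7 of the 9 genes, and those of the other 5 are not shown.

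Signals are given as deposited, on a linear scale on which each array had been scaled to a common trimmed mean. Signals of different probe sets depend on their probes and are not compared with each other as amounts of transcript. Median signals were 14.6 to 16.5 on Dap12-deficient arrays and 11.9 to 14.0 on wild-type arrays. Tyrobp, the targeted gene, had 125, 96.4 and 96.2 in Dap12-deficient cultures, against 5584, 7271 and 5396 in wild-type cultures. Microglia markers were present in both groups, with summed signals of 7 genes (Aif1, Csf1r, Cx3cr1, P2ry12, Itgam, Tmem119 and Fcrls) of 12460 to 18178 in Dap12-deficient and 14759 to 21264 in wild-type cultures. The cultures also held signal of other brain cells: 8 astrocyte markers summed to 924, 451 and 1408 in Dap12-deficient cultures 1, 2 and 3, against 940, 505 and 807 in wild-type cultures 1, 2 and 3. Summed signals of 9 oligodendrocyte markers were 8059, 3687 and 3167 in Dap12-deficient cultures and 10313, 6894 and 10032 in wild-type cultures. Of the astrocyte markers 7 had positive and 1 a negative log2 difference, and of the oligodendrocyte markers 2 and 7, with medians of 0.40 and -1.35. None was called in either list, but 7 of the 9 oligodendrocyte markers had an unadjusted p under 0.05, all lower, against 9.63% of all genes, and 3 of the 8 astrocyte markers did. Cspg4, a proteoglycan of oligodendrocyte precursors, had 45.8, 55.4 and 43.3 in Dap12-deficient and 174, 165 and 162 in wild-type cultures, without overlap (limma adjusted p = 0.0613). Olig1 and Olig2, on the same list, were the 2 with positive log2 differences, at 0.07 and 0.08. Endothelial markers (Pecam1, Cdh5, Cldn5, Tek and Tie1) were all too dim for the test, summing to 9.53 to 26.2 in Dap12-deficient and 17.8 to 25.4 in wild-type cultures, and no marker of any list was at 0. Neuronal markers summed to 280 to 370 in Dap12-deficient and 362 to 471 in wild-type cultures, and fibroblast and pericyte markers to 90.8 to 140 in Dap12-deficient and 70.8 to 108 in wild-type cultures. A lower signal of a gene in such cultures cannot be told apart from fewer of the cells that express it. The Y-linked gene Eif2s3y had 64.5, 141 and 176 in Dap12-deficient and 611, 571 and 649 in wild-type cultures, and Xist, which silences an X chromosome, had 2514, 2483 and 1228 in Dap12-deficient and 251, 277 and 1164 in wild-type cultures. Sex-linked signal thus moved with the group. An alternative fit held a sex term, the mean log2 level of Eif2s3y, Kdm5d and Uty. The term was 5.31, 5.85 and 6.19 in Dap12-deficient and 7.10, 7.35 and 7.36 in wild-type cultures. As these values do not overlap, sex and group cannot be told apart, and the part of sex in the results was not tested.

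**Figure D1:**
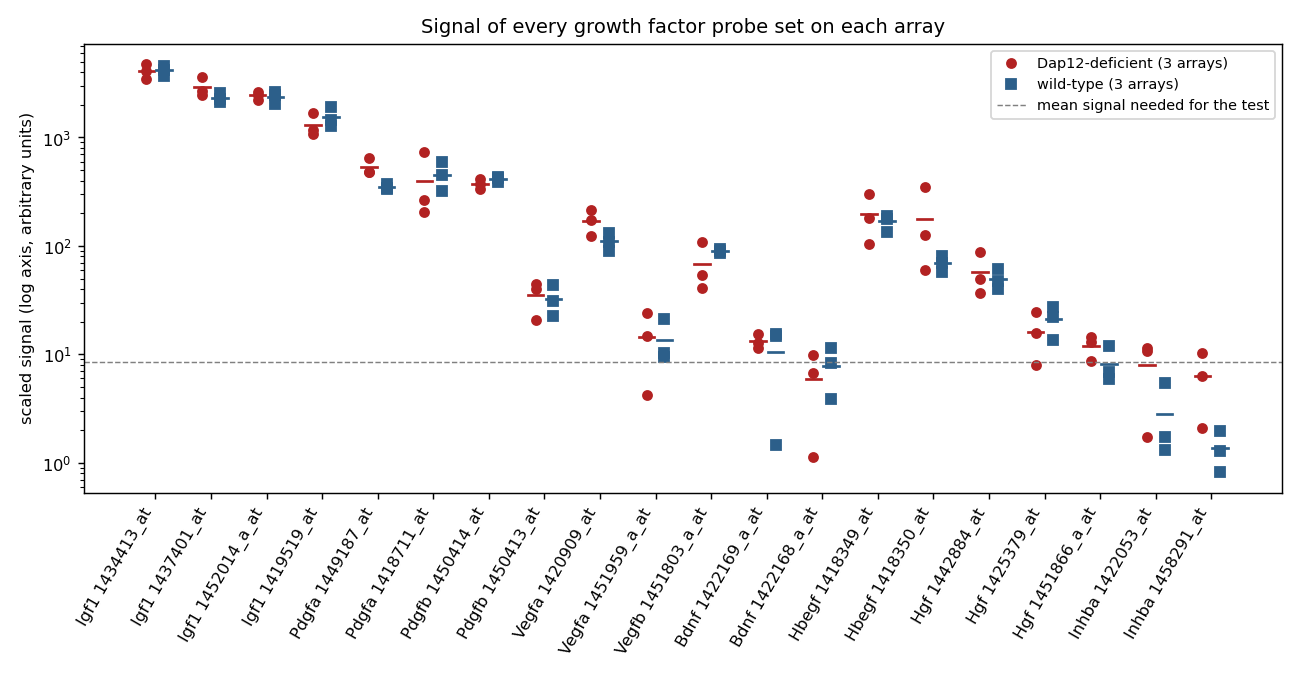
Scaled signal of each of the 20 growth factor probe sets on each array (log axis, arbitrary units), with Dap12-deficient arrays as red circles left of wild-type arrays as blue squares and short lines at the group means. The dashed line is the mean signal of 8.51 needed for the test, the Igf1 sets lie far above it, and the groups overlap in 18 of the 20 sets, the exceptions being Pdgfa 1449187_at and the untested Inhba 1458291_at.

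Differences were tested over all probe sets together with limma on log2 of the signal plus 16, two-sided, and a Benjamini-Hochberg adjusted p under 0.05 counted as called. A log2 difference is the Dap12-deficient minus the wild-type mean on that scale, which understates changes of dim probe sets. Of 27022 probe sets tested, 2 were called, or 0.0074%. Of the 17 tested growth factor probe sets, which belong to 8 genes, 0 were called, with adjusted p between 0.365 and 0.996. At an unadjusted p under 0.05 there were 2 of 17, against 10.7% of all probe sets tested. Positive log2 differences were seen for 11 and negative ones for 6, and their median was 0.06, against 0.03 over all probe sets tested. In 1 of the 17 the Dap12-deficient arrays lay above every wild-type array and in 0 below, against 9.6% above and 6.89% below among all probe sets tested. These counts are near the background.

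Igf1 gave strong signals in both groups on 4 probe sets and did not separate them. On set 1434413_at the signals were 4719, 4108 and 3446 in Dap12-deficient cultures, against 3661, 4607 and 4193 in wild-type cultures. The means were 4091 ± 637 in Dap12-deficient and 4153 ± 475 in wild-type cultures (SD, n = 3 each), and the arrays of both groups were interleaved. The log2 difference was -0.03 (SE 0.18, 95% interval -0.43 to 0.37, limma adjusted p = 0.969). Set 1452014_a_at, which can bind several transcripts of the gene, had 2228, 2638 and 2455 in Dap12-deficient cultures and 2483, 2630 and 2032 in wild-type cultures, with a log2 difference of 0.04 (95% interval -0.35 to 0.43).

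The other Igf1 probe sets lay on opposite sides of 0. Set 1437401_at had 3609, 2679 and 2445 in Dap12-deficient cultures, against 2122, 2239 and 2554 in wild-type cultures. Dap12-deficient culture 1 stood highest there, while culture 3 fell within the wild-type range, and the log2 difference was 0.32 (SE 0.19, 95% interval -0.11 to 0.75, limma adjusted p = 0.589). Set 1419519_at had 1688, 1083 and 1170 in Dap12-deficient cultures and 1440, 1273 and 1891 in wild-type cultures, with a log2 difference of -0.23 (95% interval -0.73 to 0.27). The widest bounds over the 4 sets thus ran from -0.73 to 0.75. For set 1434413_at the value was -0.54 with a sex term (adjusted p = 0.807) and -0.28 with all arrays set to a common median. The first of these lies outside that set's own interval, but the sex term does not overlap between the groups. Between sets 1434413_at and 1437401_at, the log2 difference of 1 set from the other was 0.39, 0.61 and 0.49 in Dap12-deficient cultures and 0.78, 1.04 and 0.71 in wild-type cultures (exact permutation p = 0.1, two-sided, the smallest that 3 against 3 arrays allow).

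The 3 genes whose brightest probe set followed Igf1 1434413_at most closely over the 6 arrays were Gm6958, Vav2 and Rbms1, an RNA-binding protein. Pearson's r of the log2 signals was 0.995, 0.994 and 0.987 for Gm6958, Vav2 and Rbms1 over 6 arrays, as a description, since the genes were ranked out of all 12875 on few points that share the same arrays. Vav2 had 104, 70.4 and 35.7 in Dap12-deficient cultures and 42.4, 90.5 and 67.4 in wild-type cultures. As for Igf1, Dap12-deficient culture 1 was highest, wild-type culture 2 next, and Dap12-deficient culture 3 lowest.

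The platelet-derived growth factor genes gave the only separation between groups among the tested sets. Pdgfa, the ligand of Pdgfra that expands oligodendrocyte precursors, had 648, 484 and 476 on set 1449187_at in Dap12-deficient cultures, against 339, 336 and 374 in wild-type cultures. Every Dap12-deficient array lay above every wild-type array, with means of 536 ± 97.1 in Dap12-deficient and 350 ± 21.2 in wild-type cultures (SD, n = 3 each). The log2 difference was 0.58 (SE 0.20, 95% interval 0.15 to 1.01), higher in 3 of 3 arrays, and it did not pass the correction (limma unadjusted p = 0.0134, adjusted p = 0.365). With a sex term, which does not overlap between the groups, the value was -0.07 (adjusted p = 0.982). That fit cannot tell sex and group apart. With a common median the value was 0.33 (adjusted p = 0.456).

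The second Pdgfa probe set did not show this. Set 1418711_at had 265, 729 and 207 in Dap12-deficient cultures, against 447, 598 and 321 in wild-type cultures. Dap12-deficient culture 2 was the highest of all 6 arrays and cultures 1 and 3 the lowest, so the groups overlapped, with a log2 difference of -0.35 (SE 0.40, 95% interval -1.24 to 0.55, limma adjusted p = 0.786). Without Dap12-deficient culture 2 it was -0.87 (adjusted p = 0.204), and without culture 3 it was -0.00085. The log2 difference of set 1449187_at from set 1418711_at was 1.24, -0.58 and 1.14 in Dap12-deficient cultures and -0.38, -0.80 and 0.21 in wild-type cultures (exact permutation p = 0.3, two-sided). The annotation gives both sets the same gene, and the stretch of transcript that each probes was not analysed here.

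Pdgfb, which encodes the B chain and binds both platelet-derived growth factor receptors, had 335, 412 and 372 on its bright set 1450414_at in Dap12-deficient cultures, against 392, 427 and 425 in wild-type cultures. The groups overlapped only in Dap12-deficient culture 2, which lay above wild-type culture 1. The log2 difference was -0.15 (SE 0.18, 95% interval -0.55 to 0.25, limma adjusted p = 0.796). It was -0.40 with a common median, -0.26 with a myelin term and 0.18 with the sex term. The dimmer set 1450413_at had 39.7, 44.6 and 20.6 in Dap12-deficient and 22.5, 43.9 and 30.8 in wild-type cultures (log2 difference 0.06, SE 0.25).

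Vegfa, the main angiogenic factor of the family, had 123, 172 and 216 on set 1420909_at in Dap12-deficient cultures, against 131, 90.7 and 109 in wild-type cultures. All 3 Dap12-deficient arrays lay above the wild-type mean, but culture 1 lay below wild-type culture 1, so the groups overlapped. The means were 170 ± 46.5 in Dap12-deficient and 110 ± 20.3 in wild-type cultures (SD, n = 3 each), and the log2 difference was 0.54 (SE 0.24, 95% interval 0.02 to 1.06, limma unadjusted p = 0.0441, adjusted p = 0.46). It stayed positive under all 20 alternatives run, from 0.25 with a myelin term to 1.46 with a sex term, and passed under none. Several of these, such as other filters and priors, leave the log2 difference itself unchanged, so its sign could not turn there. With a common median the log2 difference was 0.31. The dim set 1451959_a_at had 14.9, 24.0 and 4.25 in Dap12-deficient and 10.2, 21.1 and 9.47 in wild-type cultures, with a log2 difference of 0.0047 (SE 0.27).

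Vegfb, a ligand of Flt1 with a weaker role in vessel growth, was spread widely among the Dap12-deficient cultures. Its probe set 1451803_a_at had 40.6, 108 and 53.9 in Dap12-deficient cultures, against 90.7, 94.6 and 85.4 in wild-type cultures. Dap12-deficient cultures 1 and 3 lay below the narrow wild-type range and culture 2 above it. The log2 difference was -0.43 (SE 0.27, 95% interval -1.04 to 0.18, limma adjusted p = 0.608), it was -0.76 without Dap12-deficient culture 2 (adjusted p = 0.16) and -0.19 without culture 1, and it turned to 0.23 with the sex term. With a myelin term it was -0.72.

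**Figure D2:**
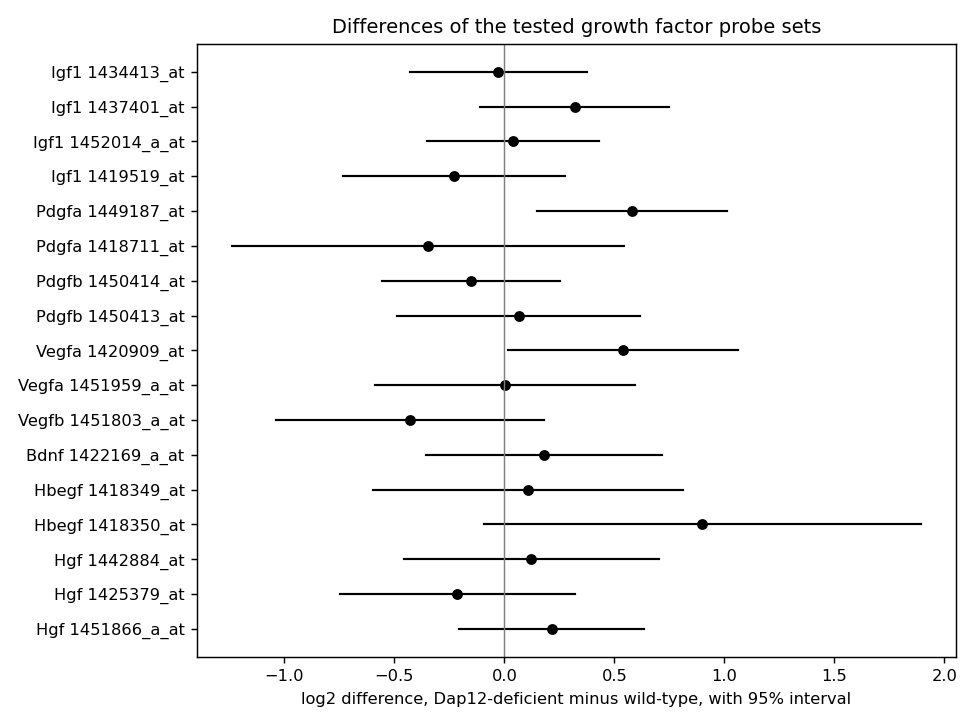
Log2 difference (Dap12-deficient minus wild-type, horizontal axis) of the 17 tested growth factor probe sets, with points for the limma estimate and lines for the 95% interval, which is not adjusted for the number of tests. Only the intervals of Pdgfa 1449187_at (0.15 to 1.01) and Vegfa 1420909_at (0.02 to 1.06) leave out 0, and other sets of both genes lie at or below 0.005.

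Hbegf, the shed ligand of the epidermal growth factor receptor, was highest in a single culture on both of its probe sets. Set 1418349_at had 182, 104 and 303 in Dap12-deficient cultures, against 179, 135 and 191 in wild-type cultures, and set 1418350_at had 126, 59.7 and 348 in Dap12-deficient cultures, against 81.5, 69.1 and 57.0 in wild-type cultures. That culture was Dap12-deficient culture 3, while Dap12-deficient culture 2 lay below the wild-type range on the first set and within it on the second. The log2 differences were 0.11 (SE 0.32, limma adjusted p = 0.926) and 0.90 (SE 0.45, adjusted p = 0.513), and without Dap12-deficient culture 3 they were -0.24 and 0.30. Without Dap12-deficient culture 2, the lowest on the first set, they were 0.46 and 1.43 (adjusted p = 0.114 for the second set). A sex term gave 0.83 and 2.38, and a myelin term 0.0033 and 0.39. The log2 difference of set 1418349_at from set 1418350_at was 0.47, 0.67 and -0.19 in Dap12-deficient cultures and 0.997, 0.83 and 1.5 in wild-type cultures (exact permutation p = 0.1, two-sided, the smallest possible here). The same test on the brightest pair of sets of Pdgfb, Vegfa and Hgf gave exact permutation p = 0.5, 0.6 and 0.6.

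The culture with the most Hbegf signal also had the most astrocyte signal. It was extreme in other marker lists too. Its microglia, oligodendrocyte and neuron sums (12460, 3167 and 280) were the lowest of all cultures, and its fibroblast and pericyte sum (140) the highest. The sum of 8 astrocyte markers was 1408 in Dap12-deficient culture 3, against 451 to 940 in the other 5 cultures. It was lowest in Dap12-deficient culture 2 (451), with 505 in wild-type culture 2. Hbegf 1418349_at was also lowest in Dap12-deficient culture 2, but 1418350_at was lowest in wild-type culture 3 (57.0). Gfap, the intermediate filament of astrocytes, had 96.7, 15.3 and 237 in Dap12-deficient cultures and 74.7, 28.5 and 53.2 in wild-type cultures, and Aqp4, their water channel, had 107, 33.9 and 244 in Dap12-deficient and 98.7, 49.4 and 122 in wild-type cultures. This order did not hold for every astrocyte marker: Dap12-deficient culture 3 was highest in 6 of the 8 and culture 2 lowest in 3 of the 8. S100b, a calcium-binding protein that oligodendrocytes make too, was lowest in culture 3, with 250, 75.7 and 62.2 in Dap12-deficient and 371, 131 and 276 in wild-type cultures. Slc1a2 and Slc1a3, the glutamate transporters, were higher in all 3 Dap12-deficient arrays than in any wild-type one, culture 2 included. Ntrk2, the receptor gene for brain-derived neurotrophic factor, was highest in the same culture, with 139, 135 and 328 in Dap12-deficient and 195, 141 and 163 in wild-type cultures. The part of astrocyte content in these values was not tested.

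**Figure D3:**
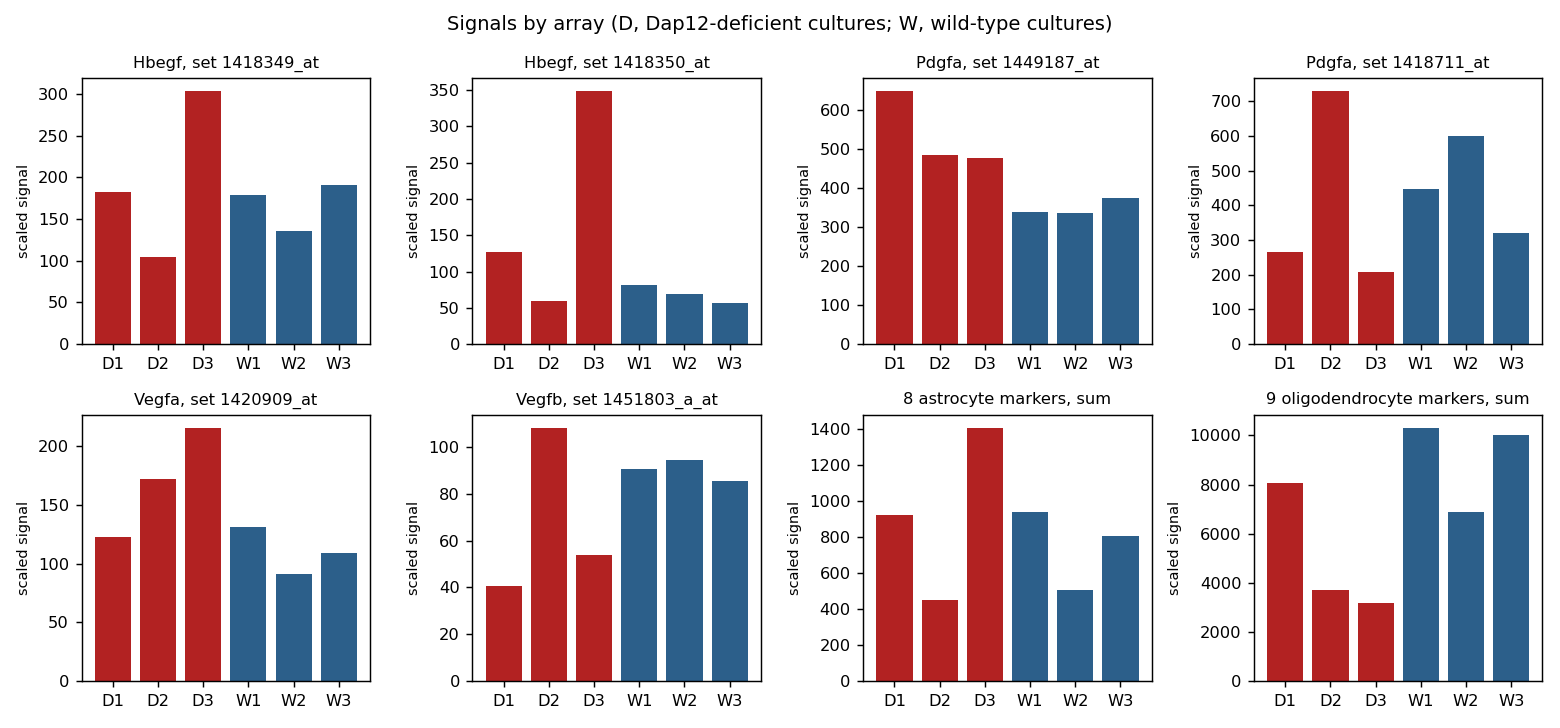
Scaled signal (bars from 0, linear axes that differ between panels) of 6 growth factor probe sets and of 2 summed marker lists on Dap12-deficient arrays D1 to D3 (red) and wild-type arrays W1 to W3 (blue). D3 is highest for both Hbegf sets (303 and 348) and the astrocyte sum (1408), and lowest for the oligodendrocyte sum (3167). D2 is highest for Pdgfa 1418711_at (729) and Vegfb (108), and Pdgfa 1449187_at alone separates the groups.

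Bdnf was near the lower end of what was tested. Set 1422169_a_at had 12.7, 15.2 and 11.5 in Dap12-deficient cultures, against 14.9, 15.4 and 1.45 in wild-type cultures, and wild-type culture 3 was the lone low array. The log2 difference was 0.18 (SE 0.24, 95% interval -0.36 to 0.72, limma adjusted p = 0.818), and it was -0.10 without wild-type culture 3. Set 1422168_a_at was too dim for the test, with 6.77, 1.13 and 9.97 in Dap12-deficient and 3.91, 11.3 and 8.27 in wild-type cultures.

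Hgf, which encodes the ligand of Met, had 3 tested probe sets. The brightest, 1442884_at, had 87.2, 36.5 and 49.3 in Dap12-deficient cultures, against 40.5, 47.4 and 60.7 in wild-type cultures. Dap12-deficient culture 1 was highest and culture 2 lowest, so the wild-type arrays lay between them, and the log2 difference was 0.12 (SE 0.26, 95% interval -0.46 to 0.70, limma adjusted p = 0.894). It was -0.15 without Dap12-deficient culture 1, 0.56 with a myelin term and -0.82 with the sex term. The dim sets 1425379_at and 1451866_a_at had log2 differences of -0.21 (SE 0.24) and 0.22 (SE 0.19), with signals of 7.96 to 24.8 and 8.60 to 14.6 in Dap12-deficient and of 13.4 to 27.5 and 5.90 to 11.9 in wild-type cultures.

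Inhba, the activin subunit, stayed under the mean signal of 8.51 on both of its probe sets and was not tested. Set 1422053_at had 10.8, 11.4 and 1.72 in Dap12-deficient cultures, against 1.73, 5.49 and 1.30 in wild-type cultures. Set 1458291_at had 10.4, 6.38 and 2.09 in Dap12-deficient cultures, against 1.30, 0.818 and 1.97 in wild-type cultures. Dap12-deficient cultures 1 and 2 were higher than every wild-type culture on both sets, and culture 3 lay within the wild-type range on the first. With no filter on low signals the log2 differences were 0.33 (limma adjusted p = 0.65) and 0.34 (adjusted p = 0.562). Signals this low were not separated from background here, because no detection calls were used.

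Receptors of the factors were described from a list of 19 genes, of which 17 had a tested probe set. By the brightest set of each gene 0 of 17 were called, against 0.0155% of 12875 genes, with 8 positive and 9 negative log2 differences and a median of -0.06, against -0.03 over all genes. At an unadjusted p under 0.05 there were 3, all with negative differences, against 9.63% of all genes. Dap12-deficient arrays lay below every wild-type array for 5 receptor genes and above for 1, against 8.85% and 7.54% of all genes. The 5 were Flt1, Ngfr, Nrp1, Acvr1b, a type I activin receptor, and Sort1, a sorting receptor for neurotrophins, and the 1 was Met. These receptors and the 9 factors come from the same arrays, so their values are given side by side only.

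Among receptors of the vascular factors, Flt1, which binds Vegfa and Vegfb, had 14.4, 17.2 and 10.99 on its brightest set in Dap12-deficient cultures, against 34.3, 24.6 and 49.8 in wild-type cultures. Every Dap12-deficient array was below every wild-type array, by -0.77 on the log2 scale (SE 0.22; limma, adjusted p = 0.335), and 3 dimmer Flt1 sets gave -0.17, -0.56 and -0.14. Kdr, the main signalling receptor of Vegfa, had 41.4, 34.1 and 56.3 in Dap12-deficient and 37.6, 17.1 and 27.0 in wild-type cultures (0.48, SE 0.23, adjusted p = 0.503). Nrp1, a co-receptor of Vegfa, had 1569, 1462 and 1386 in Dap12-deficient and 1640, 2037 and 2425 in wild-type cultures (-0.45, SE 0.19, adjusted p = 0.453). Ngfr, the low-affinity neurotrophin receptor, was dim, with 10.2, 1.62 and 10.4 in Dap12-deficient and 17.6, 15.4 and 17.9 in wild-type cultures (-0.52, SE 0.21, adjusted p = 0.424).

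Receptors of the remaining factors differed between probe sets of the same gene. Igf1r had 127, 62.3 and 205 in Dap12-deficient and 109, 91.1 and 71.6 in wild-type cultures on its brightest set, with overlap (0.36, SE 0.33, limma adjusted p = 0.729). Its second set, 1428967_at, had 113, 53.4 and 65.7 in Dap12-deficient and 42.1, 39.1 and 39.5 in wild-type cultures, with every Dap12-deficient array above every wild-type one (0.68, adjusted p = 0.373). Pdgfra had 613, 533 and 562 in Dap12-deficient and 523, 581 and 687 in wild-type cultures (-0.06, SE 0.19), while its dimmer sets gave 0.51 and 0.32. The first of these, 1438946_at, had 51.9, 61.2 and 77.8 in Dap12-deficient and 40.2, 39.2 and 39.2 in wild-type cultures, without overlap (adjusted p = 0.401). Pdgfrb and Erbb4, receptors for Pdgfb and Hbegf, were too dim for the test. Egfr and Met had log2 differences of 0.35 (SE 0.22) and 0.29 (SE 0.18), with Met at 46.9, 44.0 and 50.4 in Dap12-deficient and 37.2, 38.0 and 31.7 in wild-type cultures. The activin receptor genes Acvr2a and Acvr2b had -0.28 (SE 0.21) and -0.17 (SE 0.18), and Ntrk2 had 0.15 (SE 0.31).

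Binding proteins, inhibitors and partner subunits came next, with 13 of 17 listed genes tested. Of these 0 were called, 4 had positive and 9 negative log2 differences, and the median was -0.07. Over all 12875 genes 0.0155% were called, 5820 had positive and 7055 negative log2 differences, and the median was -0.03. Bambi, a decoy receptor that dampens signals of the transforming growth factor beta family and activins, had 163, 212 and 210 in Dap12-deficient cultures, against 454, 592 and 351 in wild-type cultures. All Dap12-deficient arrays lay below all wild-type arrays, with a log2 difference of -1.17 (SE 0.23, limma unadjusted p = 0.000394, adjusted p = 0.266). Igfbp3, a carrier of insulin-like growth factors, had 158, 140 and 124 in Dap12-deficient and 68.0, 71.0 and 163 in wild-type cultures (0.51, SE 0.29, adjusted p = 0.557), with wild-type culture 3 above the Dap12-deficient arrays. Its dimmer set 1458268_s_at had 57.0, 64.7 and 59.3 in Dap12-deficient and 30.3, 39.8 and 43.4 in wild-type cultures, without overlap (0.51, adjusted p = 0.388). Spint2, an inhibitor of the proteases that activate hepatocyte growth factor, had 5.11, 11.3 and 25.7 in Dap12-deficient and 43.1, 22.8 and 13.6 in wild-type cultures (-0.50, SE 0.30, adjusted p = 0.59).

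Proteases that release or mature the factors had 12 of 16 listed genes tested and 0 called, against 0.0155% of all genes. There were 8 positive and 4 negative log2 differences, against 5820 and 7055 over all genes, and the median was 0.22, against -0.03. St14, which encodes matriptase, an activator of hepatocyte growth factor, had 19.2, 16.2 and 15.3 in Dap12-deficient cultures, against 41.1, 46.8 and 43.3 in wild-type cultures. These groups did not overlap, and the log2 difference was -0.86 (SE 0.18, limma unadjusted p = 0.000562, adjusted p = 0.279). The proprotein convertase gene Pcsk6 had 35.5, 48.1 and 44.5 in Dap12-deficient and 22.9, 30.0 and 25.8 in wild-type cultures (0.47, SE 0.19, adjusted p = 0.421). Adam12, which encodes a metalloprotease able to shed Hbegf, had 44.0, 36.8 and 40.8 in Dap12-deficient and 24.7, 33.5 and 17.1 in wild-type cultures (0.48, SE 0.20, adjusted p = 0.451). Both were higher in 3 of 3 arrays. Adam17, on the same list, had 0.22 on its brightest set (adjusted p = 0.693). Its dimmer set 1421859_at had 346, 236 and 206 in Dap12-deficient and 92.6, 141 and 85.0 in wild-type cultures, without overlap. The log2 difference there was 1.19 (limma unadjusted p = 0.000703, adjusted p = 0.279), and a further dim set of Adam17 gave 0.60 (adjusted p = 0.442).

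Of 28 other growth and neurotrophic factors, 13 were tested and 0 called, against 0.0155% of all genes. They had 7 positive and 6 negative log2 differences and a median of 0.10, against -0.03 over all genes. Another 10 were too dim for the test and 5 were not analysed here. Tgfa, a further ligand of the epidermal growth factor receptor, had 183, 218 and 165 in Dap12-deficient cultures, against 320, 219 and 314 in wild-type cultures (-0.54, SE 0.21, limma adjusted p = 0.421), but its dimmer sets gave 0.01 and 0.45. Ptn, the heparin-binding factor pleiotrophin, which glia other than microglia make, had 1088, 374 and 772 in Dap12-deficient and 246, 370 and 517 in wild-type cultures (0.89, SE 0.37, adjusted p = 0.443), and its dimmer sets gave 0.99 and -0.04. Nrtn, a ligand of the glial cell line-derived factor family, was dim, with 20.2, 27.1 and 4.02 in Dap12-deficient and 9.90, 5.47 and 2.39 in wild-type cultures (0.54, SE 0.28, adjusted p = 0.53).

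Genes of the hypoxia response were set beside Vegfa. All 19 listed genes were tested and 0 were called, against 0.0155% of all genes. There were 4 positive and 15 negative log2 differences, against 5820 and 7055 over all genes, and the median was -0.20, against -0.03. The 4 positive genes were Ddit4 (0.39), Pfkfb3 (0.28), Slc2a1 (0.10) and Hmox1 (0.01), and Vegfa 1420909_at was positive too. The 3 with the smallest p were negative. Egln3, a prolyl hydroxylase that marks hypoxia-inducible factors for decay and is also their target, had 58.1, 58.4 and 87.3 in Dap12-deficient cultures, against 244, 236 and 165 in wild-type cultures (-1.46, SE 0.23, limma adjusted p = 0.164). Bnip3, a mitophagy receptor, had 430, 368 and 266 in Dap12-deficient and 688, 732 and 752 in wild-type cultures (-1.02, SE 0.21, adjusted p = 0.279). Ankrd37 had 33.2, 22.7 and 20.1 in Dap12-deficient and 35.7, 42.9 and 61.2 in wild-type cultures (-0.59, SE 0.22, adjusted p = 0.388). Over the list, Dap12-deficient arrays lay below every wild-type array in 5 of 19 genes and above in 0, against 8.85% and 7.54% of all genes, and these 3 are among the 5. Hif1a itself had -0.20 on its brightest set, and its dimmer tested sets gave 0.02 and 0.53.

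**Figure D4:**
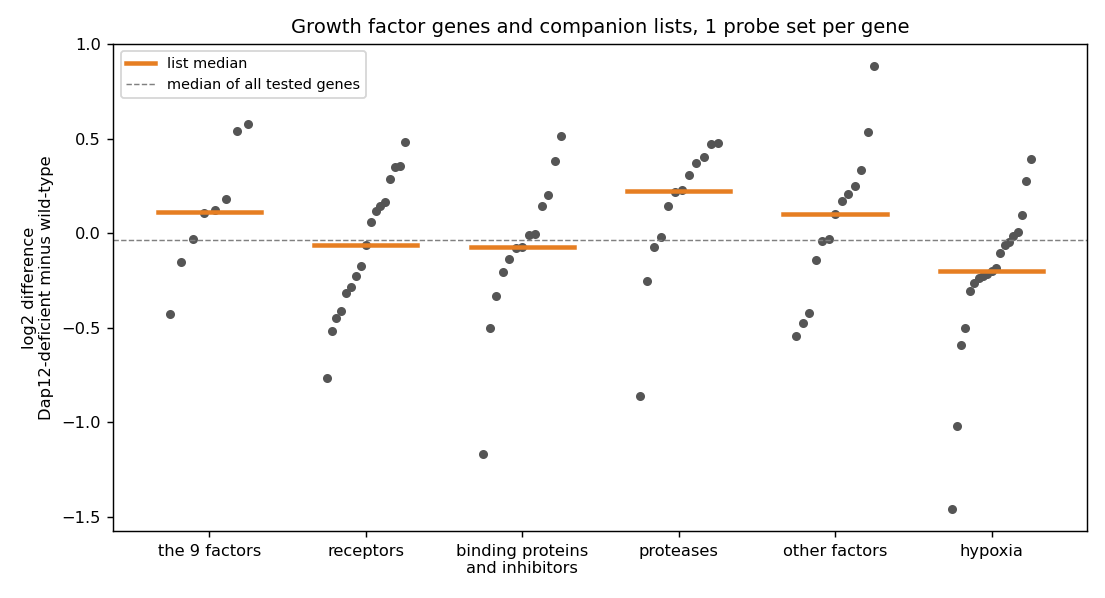
Log2 difference (Dap12-deficient minus wild-type, vertical axis) of each tested gene by its brightest probe set, in 6 columns for the 9 factors and the companion lists, with orange lines at list medians and a dashed line at the median of all tested genes (-0.03). The 8 tested factors run from -0.43 to 0.58, and the lowest points of the other columns are Flt1 (-0.77), Bambi (-1.17), St14 (-0.86), Tgfa (-0.54) and Egln3 (-1.46).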

How the data were processed

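Total RNA of 6 cultures was labelled with biotin after a 2-cycle amplification, per the labels' protocols. The intensity values deposited by the authors are linear probe set signals. GCOS is the program listed for them, per the submitters' processing notes. The sources used here give neither its algorithm nor its version. The mean after trimming 2% at each end was 100.0 on every array. No array repeated another: 0 probe sets held the same value on 2 arrays.

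Groups came from the labels, and replicates were numbered by order of deposit. Of 45101 probe sets, 64 controls were left out, 34945 had 1 gene symbol, 932 several and 9160 none in the platform annotation. Probe sets with a mean signal at or above the 40th percentile (8.51) were tested, 27022 in all, with limma 3.58.1 in R 4.3.3 (lmFit, eBayes with an intensity trend) on log2(signal + 16), across all probe sets, two-sided. Intervals are 95% intervals from the moderated fit. Permutation tests used scipy 1.17.1 and plots matplotlib 3.10.9 in Python 3.11.15. Companion lists used the brightest tested probe set of each of 12875 genes, and 2 older symbols were matched through the RefSeq gene table of GRCm38.p6. The fit was tested on simulated data.

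The members, lists and rules were chosen with earlier results of these data known. Named genes were Tyrobp, all members, their main receptors, the 3 genes of each companion list with the smallest p, the markers and the 3 genes most like the brightest member. Acvr1b, Sort1, Hif1a, Adam17, Ddit4, Pfkfb3, Slc2a1, Hmox1, Eif2s3y and Xist and further probe sets were added after their values were seen. Alternatives were other pseudocounts, normalizations, filters and priors, weighted arrays, a single set per gene, removal of less specific sets, a term for the title number, a term for Y-linked genes (Uty, Kdm5d and Eif2s3y), a term for myelin genes (Ugt8a, Mag, Mog, Mobp and Mbp), and removal of each array in turn.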

Additional observations from a re-analysis of the deposited data

How the results depend on the processing

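Under 20 alternatives the count of called growth factor probe sets was 0 each time, as was that of companion genes, and the lowest adjusted p among the 11 sets followed was 0.114 (Hbegf 1418350_at without Dap12-deficient replicate 2). The count over all probe sets, 2 as reported, was 4 with 1 probe set per gene, 4 with array weights, 5 with a common median, 5 with a myelin term, 11 with a sex term and 1 without less specific sets. Leaving out 1 array gave 2 to 172, the highest without Dap12-deficient replicate 2 (156 higher, 16 lower) and 15 without Dap12-deficient replicate 1. A common median moved the median of all tested probe sets to -0.16, from 0.03 as reported, and Hbegf 1418349_at then had a log2 difference of -0.13 and Hgf one of -0.077, while Pdgfa 1449187_at had 0.33, Vegfa 0.31, Pdgfb -0.40 and Igf1 1434413_at -0.28. Igf1 1434413_at, near 0 as reported, had 0.14 with a myelin term and 0.031 after quantile normalization. With the sex term, which moves with the group, the sign turned (Igf1 kept it, at -0.54) for Pdgfa 1449187_at (-0.067), Pdgfb (0.18), Vegfb (0.23), Bdnf (-0.14), Hgf (-0.82) and Inhba (-0.43). Leaving out 1 array gave -0.14 to 0.090 for Igf1 (0.090 without Dap12-deficient replicate 3, 0.050 without wild-type replicate 2), -0.098 to 0.33 for Bdnf (lowest without wild-type replicate 3), -0.24 to 0.46 for Hbegf 1418349_at (lowest without Dap12-deficient replicate 3, -0.027 without wild-type replicate 2) and -0.15 to 0.34 for Hgf (lowest without Dap12-deficient replicate 1). With a pseudocount of 1 the untested Inhba value was 1.10. The cause of these moves was not tested. No paired analysis was possible because the groups share no replicate number in the labels. The number of arrays, and signals near the filter for Bdnf and Inhba, limit the precision.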
